A study of Mus musculus with 2 samples.

Results

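The 6 members of the mouse Pax family described here are Pax2, Pax5 and Pax8, Pax3 and Pax7, and Pax6, chosen by their gene symbols from 43346 Ensembl genes in the deposited tables. RNA over 200 nt in length was measured in hindbrain of healthy B6NCrl mouse embryos at embryonic day 11.5. There was 1 group, with no genotype or treatment contrast. It held 2 biological replicates, each a pool of male and female embryos: pool 1 combined the hindbrains of 109 embryos and pool 2 those of 88 embryos. The input was 10 ng of RNA per library, with ERCC spike-ins, synthetic RNAs added as standards.

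Pax genes encode transcription factors that bind DNA through a paired domain, and Pax3, Pax7 and Pax6 also carry a complete homeodomain. In the embryonic hindbrain Pax2, Pax5 and Pax8 are known from the boundary between midbrain and hindbrain, where they act with Fgf8, Wnt1 and the Engrailed genes, and Pax2 and Pax8 also mark inhibitory interneurons. Pax3 and Pax7 are known from dorsal neural progenitors, and outside the neural tube from neural crest and muscle precursors. Pax6 is known from ventricular progenitors and from the rhombic lip, the source of cerebellar granule cells. Alternative splicing of the Pax6 paired box, through the cassette exon called 5a, is known to change which DNA sequences the protein binds.

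The paired box is what the 6 genes share, and a stretch of it is shown to let the members be compared base by base. Each line holds 60 coding bases from the leading transcript (GENCODE vM21, GRCm38), 5′ to 3′, and capitals mark bases that differ from Pax2.
Pax2: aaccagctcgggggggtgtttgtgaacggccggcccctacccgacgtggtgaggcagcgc
Pax5: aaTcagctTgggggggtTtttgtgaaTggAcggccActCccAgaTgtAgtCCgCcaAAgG
Pax8: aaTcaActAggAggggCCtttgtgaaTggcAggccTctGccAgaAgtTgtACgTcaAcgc
Pax3: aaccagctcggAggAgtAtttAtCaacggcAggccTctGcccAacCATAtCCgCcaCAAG
Pax7: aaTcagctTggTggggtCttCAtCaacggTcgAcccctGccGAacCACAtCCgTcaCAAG
Pax6: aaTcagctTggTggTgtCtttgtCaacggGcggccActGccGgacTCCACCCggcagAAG
These stretches lie at chr19:44760892-44760951 on the plus strand for Pax2, chr4:44697614-44697673 on the minus strand for Pax5, chr2:24444658-24444717 on the minus strand for Pax8, chr1:78195398-78195457 on the minus strand for Pax3, chr4:139830285-139830344 on the minus strand for Pax7 and chr2:105683842-105683901 on the plus strand for Pax6. Against Pax2, 16 bases differed in Pax5, 17 in Pax8, 20 in Pax3, 23 in Pax7 and 20 in Pax6. Over 117 bases of the paired box, from the start of this stretch to the place of exon 5a, base identity was 73.5% to 82.1% for the 4 pairs within a subfamily and 59.8% to 72.6% for the 11 pairs across subfamilies. The subfamilies also shared exon lengths: internal exons of 198 and 176 bases occurred in each of Pax2, Pax5 and Pax8, and exons of 236 and 247 bases in both Pax3 and Pax7. An exon of 166 bases occurred in all 6 genes, but it is not the same exon in each. It holds the stretch above in Pax2, Pax5 and Pax8 and lies outside it in Pax3, Pax7 and Pax6. In Pax2 it is the form of Pax2-201, while the leading Pax2-203 has 169 bases there.

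All 6 genes were expressed, and they spanned a wide range of levels (TPM, a measure of relative transcript number that corrects for length and so allows genes to be compared). Pax3, the dorsal progenitor factor, was highest, Pax6 and Pax8 came next at similar levels, Pax2 was lower, and Pax5 and Pax7 were lowest. Of the members, 6 of 6 had 1 TPM or more in each pool (called detected), as did 33% of all Ensembl genes and 59.4% of protein-coding genes. In bulk tissue, fewer cells of a type and less RNA per cell cannot be told apart. The levels are a description of 2 pools, and no test between groups was possible.

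Pax3 (ENSMUSG00000004872.11, chr1:78101267-78197134, minus strand) had 36.4 TPM in pool 1 and 33.9 TPM in pool 2, from 3857 and 3444 reads. Pax6 (ENSMUSG00000027168.17, chr2:105668900-105697364, plus strand) had 18.02 TPM in pool 1 and 18.4 TPM in pool 2, from 1351 and 1284 reads. Pax8 (ENSMUSG00000026976.11, chr2:24420560-24475599, minus strand) had 19.2 TPM in pool 1 and 16.6 TPM in pool 2, from 1298 and 1092 expected counts (estimated reads). The values of Pax6 and Pax8 overlapped between pools, so their order by mean, 18.2 ± 0.297 and 17.9 ± 1.81 TPM (SD, n = 2), was within the spread of the pools, whereas Pax3, at 35.2 ± 1.75 TPM, stood above both in either pool. Pax2 (ENSMUSG00000004231.11, chr19:44756045-44837871, plus strand) had 7.02 TPM in pool 1 and 7.61 TPM in pool 2, from 661 and 693 reads. It lay below Pax8 and above Pax5 in both pools.

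Pax5 (ENSMUSG00000014030.11, chr4:44524757-44710487, minus strand) had 2.11 TPM in pool 1 and 3.71 TPM in pool 2. These rested on 64.2 and 95.02 expected counts, with 95% counting intervals of 49.3 to 81.7 and 76.9 to 116 counts. Pax7 (ENSMUSG00000028736.9, chr4:139737062-139833528, minus strand) had 2.07 TPM in pool 1 and 1.51 TPM in pool 2, from 334 and 233 reads. Pax7 thus had more reads than Pax5 but a lower TPM, as its leading transcript is longer: 5854 bases for Pax7-201, against 1194 for Pax5-208. The lowest Pax5 value, 2.11 TPM, was barely above the highest Pax7 value, 2.07 TPM, so their order was narrow. It turned when transcripts that share exon bases with another gene were left out: Pax5 then averaged 1.24 TPM, below Pax7, and 5 of the 6 members stayed at 1 TPM or more in each pool. The deposited TPM of Pax5 also lay outside its own deposited interval in both pools, which ran from 2.53 to 4.83 TPM in pool 1 and from 3.78 to 6.74 TPM in pool 2, and the cause was not tested.

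**Figure D1:**
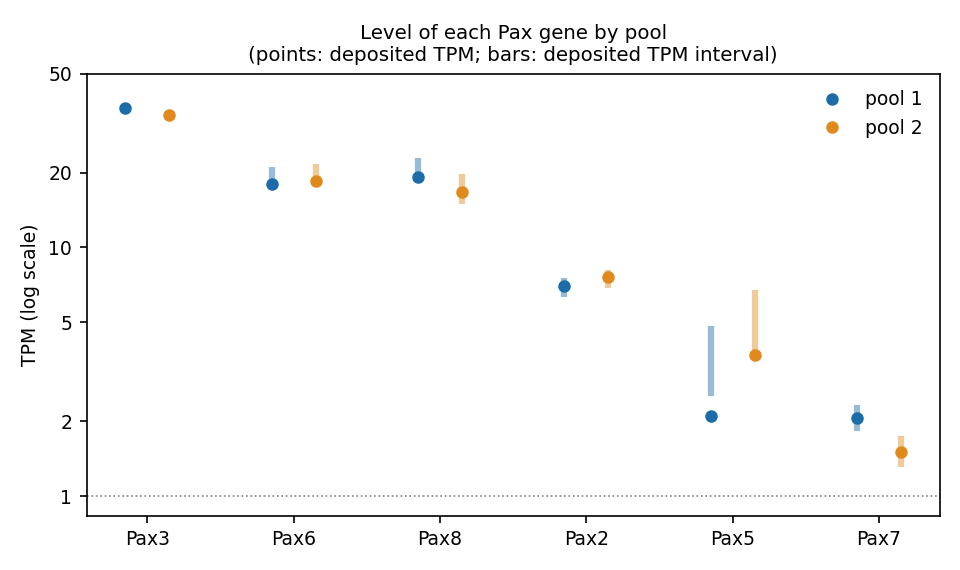
TPM of each Pax gene (vertical axis, log scale) in pool 1 (blue, left) and pool 2 (orange, right), with the deposited TPM interval as a bar (its confidence level is not stated in the sources). The points of Pax6 and Pax8 overlap between 16.6 and 19.2 TPM, and the Pax5 points, 2.11 and 3.71 TPM, lie below their bars.

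By subfamily, the Pax3/7 genes summed to 38.5 TPM in pool 1 and 35.4 TPM in pool 2, the Pax2/5/8 genes to 28.3 and 28.0 TPM, and Pax6 stood at 18.02 and 18.4 TPM. The Pax3/7 genes thus gave 45.4% and 43.3% of the TPM of the 6 genes, the Pax2/5/8 genes 33.4% and 34.2%, and Pax6 21.2% and 22.5%. Without transcripts that share exon bases with another gene, a setting chosen after seeing the data, the Pax2/5/8 sum averaged 11.7 TPM, below Pax6. That setting leaves out every protein-coding Pax8 transcript, so it cannot rank the subfamilies. In each of the larger subfamilies 1 gene gave most of the sum. Pax3 gave 94.6% and 95.7% of the Pax3/7 TPM, and Pax8 gave 67.8% and 59.5% of the Pax2/5/8 TPM, with Pax2 at 24.8% and 27.2% and Pax5 at 7.45% and 13.3%. The other genes of the family were near the detection level or, for Pax4, below it. Pax1 and Pax9, known from sclerotome and pharyngeal pouches, had 1.96 and 1.04 TPM in pool 1 and 1.33 and 1.67 TPM in pool 2. Pax4, known from the pancreas, had 1 read in pool 1 and none in pool 2, so a level of up to 3 counts is compatible with the pool without a read.

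The pools were compared as the log2 ratio of TPM plus a pseudocount of 1, pool 1 over pool 2, relative to the median gene, which itself lay at 0.11. Pax3 was at -0.01, Pax8 at 0.09, Pax6 at -0.14, Pax7 at 0.18 and Pax2 at -0.21 on this scale. Pax5, at -0.71, was 1.63-fold higher in pool 2. It was the 1 of 6 members over 1.5-fold apart, against 5.98% of 14942 genes whose mean TPM was 1 or more, and against 8.05% of 4077 such genes with 50 to 500 mean expected counts. From expected counts scaled by TMM (edgeR), Pax5 was at 0.593 of its pool 2 level in pool 1, with a 95% exact binomial interval of 0.425 to 0.823. That of Pax7, which was 1.26-fold higher in pool 1, ran from 1.06 to 1.498. That of Pax2, at 0.840, ran from 0.754 to 0.935. The intervals of these 3 genes excluded 1, and those of Pax3, Pax6 and Pax8 included it. These intervals cover counting error only, reads without molecular identifiers are not independent molecules, and the intervals say nothing of the spread between pools of embryos.

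**Figure D2:**
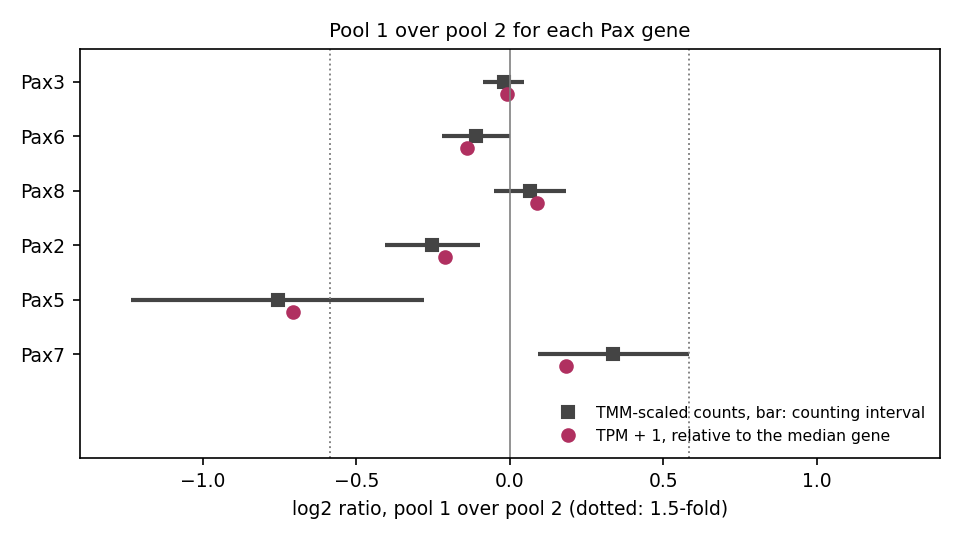
Log2 ratio of pool 1 over pool 2 (horizontal axis) for each Pax gene, as TPM plus 1 relative to the median gene (circles) and from TMM-scaled expected counts (squares, with 95% counting intervals as bars). Dotted lines mark 1.5-fold; the circle of Pax5, at -0.71, is the 1 member past them.

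Splicing and start choice were read from the deposited transcript tables, in which isoform percent is a transcript's share of its gene. The 6 genes had 62 transcripts, of which 42 had an expected count above 0 in at least 1 pool and 26 reached 5% of their gene in at least 1 pool. Each gene had the same leading transcript in both pools, 6 of 6 members, as did 88.8% of 10007 genes with several transcripts. The make-up ran from nearly 1 transcript in Pax7 to a spread over many in Pax6. Shares of transcripts are estimates that divide reads common to several transcripts, and they carry that uncertainty.

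**Figure D3:**
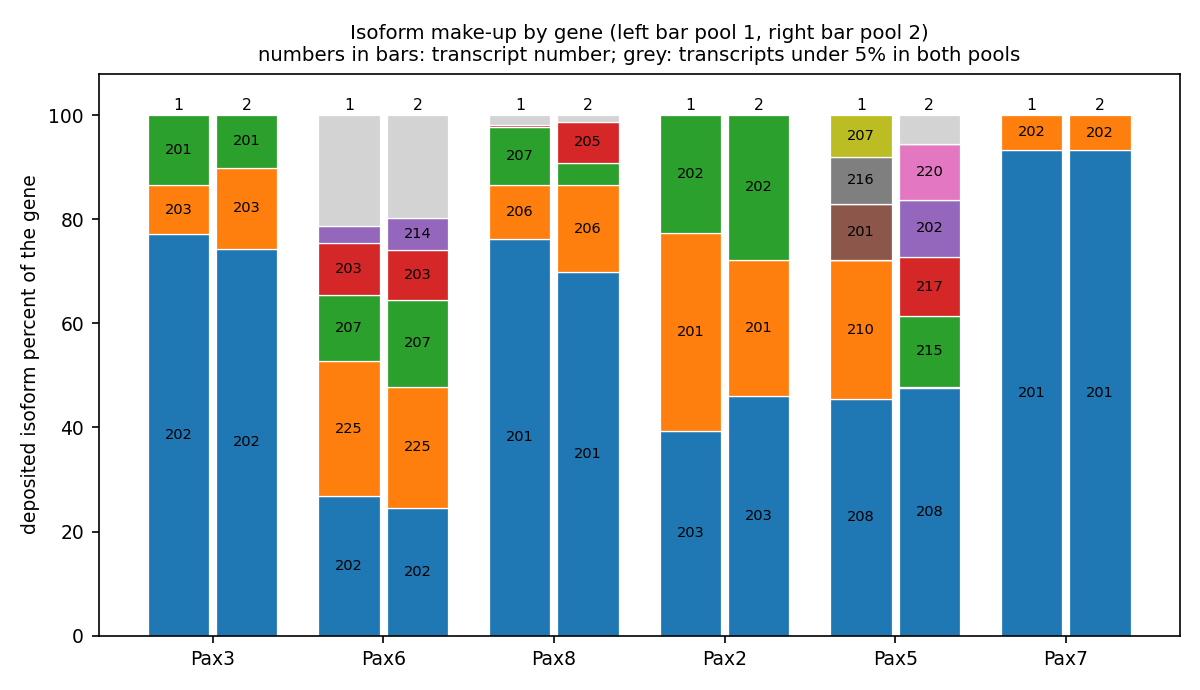
Deposited isoform percent (vertical axis) for each gene, with pool 1 as the left bar and pool 2 as the right bar. Segments carry the transcript number, and grey gathers transcripts under 5% in both pools. The leading segment is the same transcript in both pools for all 6 genes, from 93.4% and 93.2% for Pax7-201 down to 26.8% and 24.5% for Pax6-202.

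Pax2, which acts at the boundary of midbrain and hindbrain and in interneurons, was divided among 3 protein-coding transcripts. Pax2-203 held 39.3% in pool 1 and 46.1% in pool 2, Pax2-201 held 38.02% and 26.15%, and Pax2-202 held 22.7% and 27.8%. Pax2-203 and Pax2-201 were close to each other in pool 1 and well apart in pool 2. Pax2-201 was 11.9 points apart between the pools, and it was the 1 Pax2 transcript past 10 points, which 20.4% of all transcripts at or over 5% of their gene were.

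The Pax2 transcripts differ in their ends, in a cassette exon and in splice sites. The cassette exon and the splice sites each add a multiple of 3 bases and so leave the reading frame intact. The cassette exon of 69 bases (chr19:44796628-44796696) was annotated in Pax2-201 alone, so its inclusion (the TPM of transcripts that hold the exon over that of all transcripts spanning it), 38.03% in pool 1 and 26.15% in pool 2, is the share of that transcript. It is shown with 18 bases of the neighbouring exons, first as joined in Pax2-201, with the cassette exon in capitals, and then as skipped in Pax2-203.
Pax2 with the exon: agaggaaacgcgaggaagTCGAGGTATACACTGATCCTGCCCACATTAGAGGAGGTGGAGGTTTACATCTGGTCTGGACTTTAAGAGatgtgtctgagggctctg
Pax2 without the exon: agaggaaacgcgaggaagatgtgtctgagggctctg
At the exon that opens the paired box, an acceptor 3 bases upstream (chr19:44760875-44760877) was used in Pax2-203 and the shorter form in Pax2-201, and the capitals in the next line mark the added bases.
Pax2 acceptor: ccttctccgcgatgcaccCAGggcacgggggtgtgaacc
A further difference lay in the exon at chr19:44790683-44790802, whose full length of 120 bases was used by transcripts holding 77.4% of Pax2 TPM in pool 1 and 72.3% in pool 2, and whose 96-base form belonged to Pax2-202.

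Pax5, the third boundary gene with Pax2 and Pax8, had 20 annotated transcripts, of which 11 had an expected count above 0 in either pool. Pax5-208, a transcript of 5 exons with an annotated coding part of 601 bases, led with 45.5% in pool 1 and 47.5% in pool 2. The others did not repeat between pools: Pax5-210 held 26.6% in pool 1 and 0.35% in pool 2, Pax5-201 held 10.8% and 0%, Pax5-216 held 9.15% and 0%, and Pax5-207 held 7.97% and 0%. In the other direction Pax5-215 held 0% in pool 1 and 13.5% in pool 2, Pax5-217 held 0% and 11.3%, Pax5-202 held 0% and 11.1%, and Pax5-220 held 0% and 10.8%. Of the 9 Pax5 transcripts at or over 5% in either pool, 6 were more than 10 points apart. Each of these rested on 15.9 or fewer expected counts in either pool, and Pax5-208 on 30.9 and 54.5.

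Pax5 is known to have 2 alternative first exons, an upstream one used in B cells and a downstream one used also in the nervous system. Annotated 5′ ends fell into an upstream group of 13 transcripts (chr4:44710408-44710487) and a downstream group of 5 (chr4:44703413-44704006). The downstream group held 54.5% of Pax5 TPM in pool 1 and 58.9% in pool 2, and the upstream group 45.5% and 30.3%. All 5 downstream transcripts, however, share exon bases with 5730488B01Rik, an unclassified gene on the opposite strand (chr4:44702800-44705110), and Pax5-208 shares 636 of its 1194 bases with it. 5730488B01Rik had 106 expected counts in pool 1 and 111 in pool 2, more than Pax5 itself. The sources do not say whether counting used strand, so reads of the pair cannot be told apart. Without the 6 transcripts that share exon bases with a neighbour, Pax5 had 0.96 TPM in pool 1 and 1.52 TPM in pool 2.

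The other 3 genes within Pax5 share no exon base with any Pax5 transcript that had reads. Gm12462, an antisense gene, had 12 reads in pool 1 and 10 in pool 2 and shares 125 bases with Pax5-211, which had none. 4930517J16Rik had 12 and 17 reads, and Mir5120 had none in either pool. B-lineage markers were mostly at or near 0, and 1 of 8 was detected, against 59.4% of protein-coding genes. That was Ebf1, a factor also used in neurons, with 75.6 TPM in pool 1 and 74.6 TPM in pool 2. The list summed to 77.9 and 77.1 TPM with Ebf1, the next highest member, Cd79b, had 0.68 and 1.29 TPM, and Igll1 and Blk were at 0 in both.

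**Figure D4:**
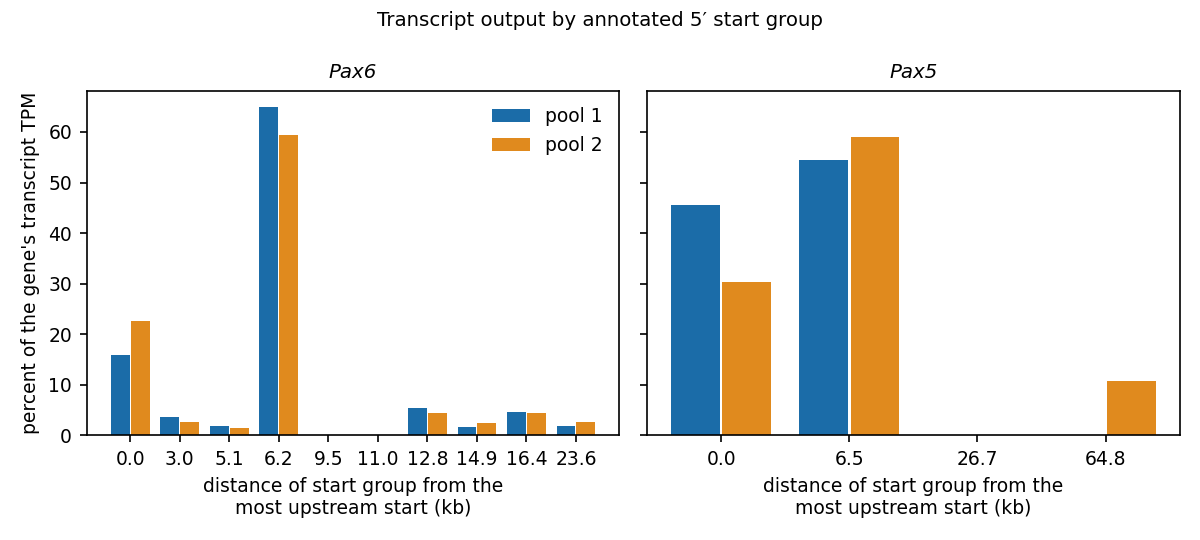
Percent of transcript TPM (vertical axis) by annotated 5′ start group, for Pax6 (left panel) and Pax5 (right panel), with pool 1 in blue and pool 2 in orange. Groups are named by their distance in kilobases from the most upstream annotated start; the fourth group of Pax6 holds 64.9% and 59.3%, and the downstream group of Pax5 holds 54.5% and 58.9%.

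Pax8, the most abundant of the Pax2/5/8 genes, was mainly Pax8-201, with 76.3% in pool 1 and 69.8% in pool 2. The rest held much RNA that is annotated as non-coding. Pax8-206, a retained-intron transcript of 3386 bases at the 5′ end of the gene, held 10.4% in pool 1 and 16.7% in pool 2, and Pax8-205, a retained-intron fragment of 345 bases, held 0.5% and 8.04%. Non-coding transcripts together held 10.9% of Pax8 TPM in pool 1 and 24.8% in pool 2. Over all protein-coding genes, retained-intron transcripts held 4.91% of TPM in pool 1 and 5.64% in pool 2. Pax8-205 rested on 0.69 and 9.3 expected counts, and Pax8-206 on 193 and 259.

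At the Pax8 exon of 198 bases, in the paired box, an acceptor 3 bases upstream adds a codon (chr2:24443138-24443140), a kind of variant of the paired domain that is known for Pax8. The capitals mark the added bases.
Pax8 acceptor: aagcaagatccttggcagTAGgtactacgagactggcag
The longer form held 12.4% of spanning TPM in pool 1 and 5.6% in pool 2, all of it in Pax8-207, a short transcript of 626 bases with 11.1% and 4.22% of the gene. Counted in reads in place of TPM, the longer form held 2.98% in pool 1 and 1.27% in pool 2, so its level depends on how a short transcript is scaled. Gm13415, a gene on the opposite strand, shares exon bases with 6 Pax8 transcripts, up to 367 with Pax8-207. It had 20.3 and 38.6 expected counts, against 1298 and 1092 for Pax8. The 6 transcripts include the leading one, Pax8-201, and every other protein-coding Pax8 transcript. Without them Pax8 had 2.09 TPM in pool 1 and 4.12 TPM in pool 2, below Pax2. Only the retained-intron transcripts Pax8-206 and Pax8-205 were then left. This setting thus leaves no coding Pax8 RNA to measure and cannot rank the gene.

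For Pax2 and Pax8, otic vesicle, kidney and thyroid are known as other sites of expression. The share of protein-coding genes detected, 59.4%, is the background for each of these lists. Of 9 otic markers 7 were detected, and the list summed to 141 TPM in pool 1 and 78.1 TPM in pool 2. Its highest member, Oc90, an otic matrix protein, had 105 TPM in pool 1 and 47.6 TPM in pool 2, followed by Gata3 with 14.0 and 15.8 TPM, and Otol1 was lowest with 0.23 and 0.26 TPM. Relative to the median gene, 4 of the 9 were higher in pool 1 and 5 higher in pool 2, with a list median of -0.02 on the log2 scale. The 3 over 1.5-fold higher in pool 1 were Oc90, Dlx5 (4.70 and 1.58 TPM) and Lmx1a (8.57 and 3.86 TPM), against 1.63% of all genes, and none was over 1.5-fold higher in pool 2. Lmx1a is also on the list of rhombic lip genes, so it is not particular to the otic vesicle. Of 8 kidney markers 4 were detected, near that background, and the list summed to 56.5 and 55.6 TPM. It was led by Lhx1 with 40.3 and 39.6 TPM and Osr1 with 7.49 and 8.43 TPM, both also neural or mesenchymal genes. Umod was at 0 in both pools. None of 6 thyroid markers was detected, and the list summed to 1.07 and 1.35 TPM, with Slc5a5 (0.36 and 0.49 TPM) and Tg (0.26 and 0.39 TPM) highest. The higher otic sum in pool 1 came mostly from Oc90. Beside these lists the relative log2 ratio, pool 1 over pool 2, was -0.21 for Pax2 and 0.09 for Pax8, and the part of these cells in the Pax levels was not tested.

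Of 3 genes that overlap Pax2, none shares an exon base with it. Gm20395, an antisense gene, had 29 reads in pool 1 and 20 in pool 2, and 1700039E22Rik, also antisense, and Mir6405 each had 3 and 1. Of the genes known to act with Pax2, Pax5 and Pax8 at the boundary of midbrain and hindbrain, 13 of 14 were detected. The share over all protein-coding genes was 59.4%. Cnpy1, an Fgf signalling factor, had 55.2 TPM in pool 1 and 43.3 TPM in pool 2, the Fgf antagonist Spry2 had 28.4 and 25.8 TPM, and En2, lowest, had 0.89 and 0.76 TPM. Of inhibitory interneuron genes 9 of 10 were detected, against the same 59.4%. The factors Lhx1, above, and Lhx5 (28.0 and 29.5 TPM) were highest and Gbx1 (1.44 and 0.72 TPM) lowest. None of either list was past 1.5-fold in either direction, where 1.63% of all genes were higher in pool 1 and 4.35% higher in pool 2.

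Pax3 was a gene of few forms, all from 1 group of 5′ ends (chr1:78196838-78197134). Pax3-202 held 77.2% in pool 1 and 74.3% in pool 2 and Pax3-201 held 13.4% and 10.1%. Both are protein-coding and differ at their 3′ end, where Pax3-201 adds a splice after an exon of 247 bases (chr1:78103328-78103574), used by 14.8% of spanning TPM in pool 1 and 11.9% in pool 2. Pax3-203, a non-coding transcript that ends after the exons of 236, 130 and 135 bases, held 9.45% and 15.6%, from 321 and 476 expected counts. It was the 1 Pax3 form with more reads in pool 2, while the gene as a whole was level. Of the 7 internal exons of Pax3, 6 were in all spanning transcripts. No annotated gene overlaps Pax3 or Pax7.

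Pax7, the partner of Pax3, had 2 transcripts, with Pax7-201 at 93.4% in pool 1 and 93.2% in pool 2 and Pax7-202 at 6.63% and 6.76%. They differ in an acceptor 6 bases upstream at the exon that follows those of 236 and 130 bases, which gives an exon of 135 bases in Pax7-202 and of 129 bases in Pax7-201. The Pax3 exon at that place also measures 135 bases. The 6 added bases (chr4:139828705-139828710, minus strand) are in capitals, followed by the joint of Pax7-201.
Pax7-202: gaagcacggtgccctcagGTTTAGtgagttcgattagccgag
Pax7-201: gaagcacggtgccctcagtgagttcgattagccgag
The equal shares in the pools rested on 6.57 and 4.68 expected counts of Pax7-202, so a difference was not detectable at this depth. By reads in place of TPM the longer acceptor held 1.97% in pool 1 and 2.01% in pool 2.

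Of the dorsal progenitor factors known to share the Pax3 and Pax7 domain, 12 of 12 were detected, against 59.4% of protein-coding genes. Msx3 and Msx1, homeobox genes of the dorsal neural tube, were highest, with 105 and 77.9 TPM in pool 1 and 72.8 and 83.3 TPM in pool 2, and Gsx2 was lowest with 4.2 and 4.11 TPM. Pax3 and Pax7 are also muscle and crest genes, so markers of both were read. Of 10 muscle precursor markers 6 were detected, near the 59.4% of protein-coding genes, and Myod1 (2.38 and 0.81 TPM) was not. All 10 were higher in pool 1 relative to the median gene, above and below which equal numbers of genes lie by definition. Of these, 4 (Myod1, Myog, Actc1 and Acta1) were over 1.5-fold higher, against 1.63% of all genes. The list summed to 67.5 TPM in pool 1 and 33.0 TPM in pool 2. Actc1, a muscle actin, had 36.1 and 15.8 TPM, Myog, a factor of muscle differentiation, had 9.21 and 3.78 TPM, and Myf6, lowest, had 0.09 and 0 TPM. Of 8 neural crest markers 7 were detected, against the same 59.4%, with list sums of 231 and 199 TPM. Sox10, with 12.7 and 7.31 TPM, was the 1 crest marker over 1.5-fold higher in pool 1. Ednrb (115 and 93.9 TPM) and Tfap2b (56.5 and 49.4 TPM) were highest and Mitf (0.83 and 0.82 TPM) lowest. Beside these lists the relative log2 ratio was 0.18 for Pax7 and -0.01 for Pax3, and the part of muscle or crest cells in either was not tested.

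Pax6 had the most complex make-up, with 26 transcripts, 18 of them with an expected count above 0 in either pool and 5 at or over 5%. Pax6-202 held 26.8% in pool 1 and 24.5% in pool 2, Pax6-225 held 26.1% and 23.4%, Pax6-207 held 12.7% and 16.6%, Pax6-203 held 9.83% and 9.7%, and Pax6-214 held 3.25% and 6.04%. Pax6-202, Pax6-207 and Pax6-203 have the same coding length, 1266 bases, without exon 5a, and differ in their 5′ ends. Pax6-225, of 1308 coding bases, carries exon 5a. The largest difference between the pools was 3.94 points, for Pax6-207, so no Pax6 transcript passed 10 points. Non-coding transcripts held 16.4% of Pax6 TPM in pool 1 and 15.3% in pool 2.

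The cassette exon 5a (chr2:105684751-105684792, plus strand) of 42 bases inserts in frame into the paired box and is the part of Pax6 whose use decides between DNA-binding forms. It is shown with 18 bases of each neighbouring exon, as joined in Pax6-225 with the exon in capitals, and as skipped in Pax6-202.
Pax6 with exon 5a: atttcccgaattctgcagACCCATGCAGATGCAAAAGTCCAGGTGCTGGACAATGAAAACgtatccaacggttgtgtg
Pax6 without exon 5a: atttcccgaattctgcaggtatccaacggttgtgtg
Transcripts with exon 5a held 30.9% of the spanning TPM in pool 1 and 30.4% in pool 2, a mean of 30.6 ± 0.386% (SD, n = 2). By expected counts the inclusion was 30.5% and 30.004%, and over protein-coding transcripts alone 32.5% and 31.9%. Nearly all of it came from Pax6-225, with 4.70 TPM in pool 1 and 4.31 TPM in pool 2, of 4.87 and 4.79 TPM for all 9 transcripts that hold the exon. The estimate thus leans on 1 transcript that also differs in its first exons. The other exons of the paired box were used almost throughout: the exon of 131 bases before 5a by 90.03% and 90.9% of spanning TPM, the exon of 216 bases after it by 94.6% and 96.1%, and the next, of 166 bases, by 96.0% and 96.8%.

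**Figure D5:**
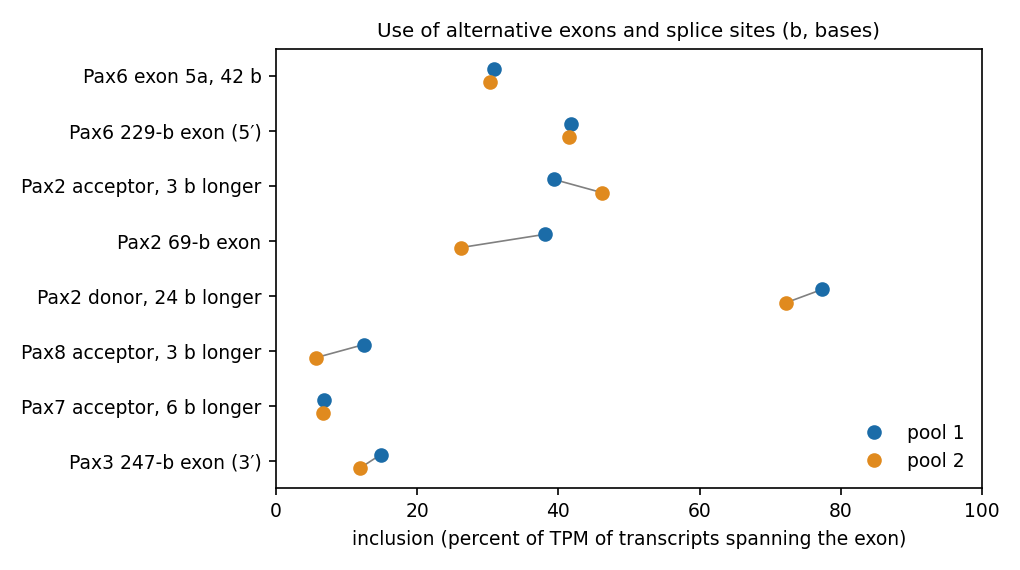
Inclusion of alternative exons and splice sites (horizontal axis, percent of the TPM of transcripts that span the exon) in pool 1 (blue, upper point) and pool 2 (orange, lower point). Exon 5a of Pax6 lies at 30.9% and 30.4%, whereas the 69-base exon of Pax2 lies at 38.03% and 26.15%.

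Pax6 is known to start from several promoters, 2 upstream and 1 within the gene. Annotated 5′ ends fell into 10 groups. The group of 8 transcripts at chr2:105675109-105676129 held 64.9% of Pax6 TPM in pool 1 and 59.3% in pool 2, and the most upstream group, of 4 transcripts at chr2:105668900-105668935, held 16.0% and 22.7%. A group of 7 within the gene (chr2:105681712-105682637) held 5.38% and 4.40%, and each of the rest held under 5% in both. The second most used group was thus about 6 kilobases upstream of the main one. By the estimated shares, exon 5a came nearly wholly from the main group. Pax6-206, which holds exon 5a and starts in the most upstream group, was at 0 TPM in both pools. Its deposited interval reached 1.22 TPM in pool 1 and 0.527 TPM in pool 2. The shares depend on how common reads were divided, and a link between start and exon 5a was not tested.

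Promoter sequence was at hand in RefSeq (GRCm38.p6) for 5 of the 6 members (all but Pax3), with 8 entries of 250 bases before and 50 after a start. The 2 entries of Pax6 lie at the most upstream start group and at the group within the gene, so the motif counts do not cover its main start group. They also miss the downstream start group of Pax5. No entry of Pax2, Pax5 or Pax7 starts at the annotated 5′ end of its leading transcript. The letters CCAAT, on either strand, occurred in 2 of the 8, the upstream start of Pax6 and that of Pax8, and in 37.4% of 32851 promoters. Those 2 are shown for the 120 bases before the start, with the match in capitals, at chr2:105668776-105668895 on the plus strand for Pax6 and chr2:24475600-24475719 on the minus strand for Pax8.
Pax6 upstream promoter: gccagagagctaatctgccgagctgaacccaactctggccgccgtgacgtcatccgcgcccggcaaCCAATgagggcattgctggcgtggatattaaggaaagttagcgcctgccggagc
Pax8 promoter: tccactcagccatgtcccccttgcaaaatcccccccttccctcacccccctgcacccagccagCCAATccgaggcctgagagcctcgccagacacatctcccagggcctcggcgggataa
The match began 54 bases before the start in Pax6 and 57 before it in Pax8. TATAAA occurred in none of the 8 and in 13.6% of all promoters, and GGGCGG in 5 of the 8 (1 each of Pax5, Pax7 and Pax8 and 2 of Pax2) and in 35.7% of all. A match describes these letters and not a site in use.

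Pax6os1, the antisense gene at the upstream end of Pax6, had 2 reads in pool 1 and none in pool 2 and shares no exon base with Pax6. Of ventral and intermediate progenitor factors, whose domains Pax6 is known to help set, 8 of 10 were detected. The share of protein-coding genes detected, 59.4%, is the background for this list and the next ones. Dbx1 (26.9 and 27.1 TPM in pool 1 and pool 2) and Irx3 (20.6 and 20.3 TPM) were highest and Olig2 (0.96 and 0.54 TPM) lowest. Of the rhombic lip genes 7 of 8 were detected, with Meis1 (113 and 92.3 TPM) and Neurod1 (24.4 and 21.8 TPM) highest and Eomes (0 and 0.07 TPM) lowest. Lmx1a, on this list and on the otic one, was the 1 of the 8 over 1.5-fold higher in pool 1, against 1.63% of all genes. All 9 genes listed as Pax6 targets or partners in progenitors were detected, led by Fabp7, a fatty acid binding protein of radial glia, with 1016 and 923 TPM and Hes5, a Notch target, with 202 and 109 TPM, and Sox1 was lowest with 3.97 and 3.78 TPM. Hes5 was the 1 of the 9 over 1.5-fold higher in pool 1, against 1.63% of all genes. Relative to the median gene, 6 of the 9 were higher in pool 1 and 3 higher in pool 2.

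Markers of the eye and of the placodes, where Pax6 is also known, were mostly low. Of 8 eye field markers 2 were detected, against 59.4% of protein-coding genes, the background for both lists here. Otx2, also expressed in brain, was highest with 10.3 TPM in pool 1 and 9.28 TPM in pool 2, Tbx5 was lowest with 0.01 TPM in each pool, and the list summed to 15.2 and 16.8 TPM. Of 7 olfactory and lens placode markers 3 were detected, led by Prox1 (6.76 and 5.86 TPM) and Cryab (2.97 and 3.65 TPM), with sums of 13.3 and 11.8 TPM, and the lens genes Foxe3 and Cryaa were at 0 in both pools. The lists' part in the Pax6 level was not tested.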

How the data were processed

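Total RNA-seq of 2 pools of embryonic day 11.5 hindbrain was analysed from gene and transcript tables. Per the file headers, the authors deposited expected counts (estimated counts, not whole), TPM, FPKM, bounds of a TPM interval and, per transcript, an isoform percent. Per the labels the build was mm10, with mirVana extraction and a Smart-Seq protocol; a readme gives GENCODE M4. The sources used here do not state aligner, quantifier or strand setting. TPM includes spike-ins, 16.2% of TPM in pool 1 and 22.2% in pool 2. Depth was 45340440 and 41261544 expected counts.

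Names, biotypes and exons came from GENCODE vM21 (GRCm38, 1-based), matched without version; 61 of 62 Pax transcripts had the tables' length, and Pax5-201, which did not, was left out of exon inclusion. Inclusion is TPM of transcripts with the exact exon over TPM of transcripts spanning it. Start groups join 5′ ends within 1000 bases. Counts rounded to whole numbers were scaled with edgeR 4.0.16 (TMM) or DESeq2 1.42.0 size factors in R 4.3.3; Matplotlib 3.10.9, SciPy 1.17.1, pandas 2.3.3 and NumPy 2.4.6 ran under Python 3.11.15. On simulated counts, pool 1 over pool 2, 100% of 200 genes changed 3-fold and 1.81% of 15214 unchanged genes passed 1.5-fold. The changed genes were drawn from those with at least 200 expected counts in pool 1, and the spread between pools was assumed. Pax5, 1.63-fold apart on 64.2 and 95.02 expected counts, lies outside that setting, so the simulation does not bear on it. In the real pools 5.98% of genes passed 1.5-fold.

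Genes named were the members, their transcripts at or over 5% in either pool, Pax1, Pax4, Pax9, genes overlapping a member, and in each of 17 lists the 2 highest and 1 lowest by mean TPM. Myod1, Acta1, Sox10, Dlx5, Lmx1a and Eya3 were added once their values were known; some genes under the rule are not reported here. The lists held 148 distinct genes, of which 147 matched. Members and lists were chosen with earlier results of these data known. With 1 group of 2 libraries no p-value is given.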

Additional observations from a re-analysis of the deposited data

How the results depend on the processing

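The sum of the 6 Pax genes, 83.3 TPM on average, came to 55.5 as FPKM, to 103 TPM without spike-in entries and to 119 TPM over protein-coding nuclear genes. The same settings gave 18.8, 34.9 and 40.2 for Pax2/5/8 (28.1 TPM), 24.6, 45.7 and 52.7 for Pax3/7 (37.0 TPM), and 12.2, 22.6 and 26.1 for Pax6 (18.2 TPM). These settings rescale all genes of a library, and the order of the 6 genes by mean was the same under each. By replicate alone the 4 sums ran from 81.8 to 84.8, 28.0 to 28.3, 35.4 to 38.5 and 18.02 to 18.4 TPM. The count of members over 1.5-fold apart, 1, was 0 at a fold of 2 and 0 with TMM-scaled counts plus the pseudocount, where Pax5 was at -0.50, since the pseudocount weighs more on its low counts; over its 6 alternatives Pax5 ran from -0.90 to -0.50. Pax3 was at 0.10 when not set relative to the median gene. Inclusion of exon 5a was 30.2% by expected counts and 32.2% over protein-coding transcripts, and 30.4% to 30.9% by replicate. The leading transcript of each of the 6 genes was the same by expected counts and over protein-coding transcripts. Of 156 entries in the lists 112 were detected, against 59.4% of protein-coding genes, and 72 reached a TPM of at least 5. Without transcripts that share exon bases with a neighbour, an alternative chosen after seeing the data, Pax5 averaged 1.24 TPM (2.91 with them) and Pax8 3.10 TPM (17.9). The sums then averaged 11.7 TPM for the Pax2/5/8 genes and 66.8 TPM for the 6 genes. Pax8 then came after Pax2 and Pax5 after Pax7. For Pax8 this alternative left out every protein-coding transcript, so it cannot rank that gene. Of the summary values under alternatives, 64 counted as unmoved and 20 as moved, by limits that differed between results. For levels, sums and exon 5a the limit was 1 SD of the 2 pools, which a single replicate cannot exceed. For pool ratios it came from the width of the counting interval, and for counts it was 1.5 times. The tally is thus not a measure of how stable the results are. No paired analysis was possible because the series holds 1 group.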

Other observations

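Most partners of Pax proteins on the lists were detected, that is, had 1 TPM or more in each pool, as did 59.4% of protein-coding genes. Of 12 genes of the network in which Eya1 and Dach1 act with Pax genes in eye, ear, muscle and kidney, 10 were detected in both pools. Eya1, a transcriptional co-activator with phosphatase activity, had 20.1 TPM in pool 1 and 23.9 TPM in pool 2, and Dach1, a nuclear co-factor, had 18.3 and 23.2 TPM. Six6, a gene of eye and pituitary, was lowest with 0.02 and 0.06 TPM. The list median was 8.79 TPM in pool 1 and 7.80 TPM in pool 2, and 1 gene, Eya3, with 16.0 and 23.1 TPM, was over 1.5-fold higher in pool 2. Of the co-regulators, 9 of 9 matched genes of 10 listed were detected. Wdr5, a subunit of histone methyltransferase complexes, had 47.1 and 40.3 TPM, Daxx, a histone chaperone known to bind Pax3, had 45.9 and 33.6 TPM, and Tle2, a Groucho co-repressor, was lowest with 6.61 and 4.91 TPM. The list median was 23.4 and 17.4 TPM.

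Sclerotome markers, the list of Pax1 and Pax9, were detected for 5 of 8, near the 59.4% of protein-coding genes. Their sums were 259 TPM in pool 1 and 232 TPM in pool 2. The highest were Sox9 (103 and 87.3 TPM) and Col2a1 (99.3 and 87.2 TPM), genes of cartilage that are also known in the neural tube, and Acan, a cartilage matrix gene, was lowest with 0.3 and 0.27 TPM. Pax1 had 1.96 TPM in pool 1 and 1.33 TPM in pool 2, and Pax9 had 1.04 and 1.67 TPM.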
